A study of Mus musculus with 11 samples.

Results

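Integrated stress response genes were followed in mouse hearts after myocardial infarction (MI). The set held 10 genes: Gdf15, Atf4, Atf5, Ddit3, Trib3, Asns, Chac1, Sesn2, Fgf21 and Psat1. They were taken by symbol from the deposited table of 55421 genes as Atf4, its relatives and genes known as targets of ATF4 or of CHOP, the protein encoded by Ddit3. The symbol Ddit3 stood on 2 entries of the table, so that 11 entries matched.

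Poly(A) RNA was sequenced from 11 hearts of female C57BL/6J mice aged 8 weeks. In 8 mice the left anterior descending coronary artery was ligated, and the infarct was excised with its border zone 3 days later. Of these, 4 mice (A116, A117, A119 and A120) received A10i, the hydroxamate ADAM10 inhibitor GI254023X, at 100 mg/kg from an implanted osmotic minipump, and 4 mice (A105, A127, A128 and A129) received its solvent DMSO. The sham group held 3 mice (S1, S2 and S3), which were operated without ligation, also received DMSO and gave healthy heart tissue. All groups thus carried DMSO, no group was infarcted without DMSO, and no sham mouse received A10i. Infarct tissue and healthy tissue differ in their cells, and in such bulk samples fewer cells of a type and less RNA per cell cannot be told apart. Between 21702623 and 29511768 fragments were counted on genes per heart.

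The integrated stress response begins when a kinase phosphorylates the translation initiation factor eIF2alpha, which lowers protein synthesis in general while translation of the Atf4 mRNA rises. ATF4 then pairs with C/EBP proteins and other partners and turns on genes for amino acid supply, for glutathione handling, for the restart of translation and, under lasting stress, for cell death. In the heart the best known product of this response is GDF15, a secreted cytokine of stressed cardiomyocytes and macrophages that signals to the hindbrain through the receptor GFRAL. ATF4 is controlled largely at the level of translation, and neither proteins nor eIF2alpha phosphorylation were measured in these samples.

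The binding sequence of ATF4 with its C/EBP partner was looked up in the promoters of the members, since it is the feature by which many of them are grouped. RefSeq promoter windows (build GRCm38.p6, 250 bases before to 50 bases after each transcription start) existed for 10 of 10 members, with 2 windows each for Gdf15, Atf5 and Psat1. The core letters TGATGNAA were found on either strand in 4 members, and in 4.51% of the 27025 genes of the RefSeq table. Its special case TTGCATCA, which is the same core read on the other strand, was found in 2 of these 4 members and in 1.03% of all genes, and the letters TGACGTCA, a cyclic AMP response element that is its own reverse complement, in 0 members and in 2.03% of all genes. The 4 stretches are printed in the direction of their gene, with the matched letters in capitals, because they show how the core differs between the members that hold it.
Chac1: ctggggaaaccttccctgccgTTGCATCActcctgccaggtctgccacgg
Fgf21: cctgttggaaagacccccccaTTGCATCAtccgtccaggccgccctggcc
Trib3: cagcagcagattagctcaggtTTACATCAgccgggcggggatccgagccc
Asns: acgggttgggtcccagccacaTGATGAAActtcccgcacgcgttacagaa
The Chac1 stretch (chr2:119351028-119351077, plus strand) and the Fgf21 stretch (chr7:45615601-45615650, minus strand) carried the same letters, which began 193 and 139 bases upstream of the RefSeq start. In Asns (chr6:7693204-7693253, minus strand) the core was read on the gene's own strand and began 23 bases upstream of the start, whereas in Trib3 (chr2:152344018-152344067, minus strand) it was read on the other strand and began 14 bases downstream of it. A match is a description of letters, and the windows of the other 6 members only lacked these letters.

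The members spanned a wide range of levels. FPKM, fragments counted per kilobase of exon and scaled between hearts as the normalized counts were, is the scale on which genes can be compared. In FPKM, Atf4 (46.9 ± 1.04, SD, n = 3) and Atf5 (39.1 ± 2.47) stood highest in sham hearts, followed by Ddit3 (10.5 ± 1.26) and Chac1 (4.75 ± 0.914). Trib3 (1.83 FPKM), Sesn2 (1.34), Asns (0.952), Psat1 (0.722) and Gdf15 (0.501) were low in the sham hearts, and Fgf21 was nearly absent. The FPKM ranges of Asns and Psat1 overlapped in the sham hearts, whereas those of the other neighbours in this order were separate. In DMSO hearts Gdf15 reached 8.68 ± 4.90 FPKM (n = 4) and held the place after Atf4 and Atf5, although its range (4.69 to 15.5 FPKM) enclosed that of Ddit3 (5.95 to 8.86 FPKM). In A10i hearts Gdf15 was at 2.83 ± 0.979 FPKM (n = 4), and its range overlapped those of Chac1, Psat1, Asns and Sesn2. Atf4 and Atf5 were the most abundant transcripts of the set in sham, DMSO and A10i hearts.

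**Figure D1:**
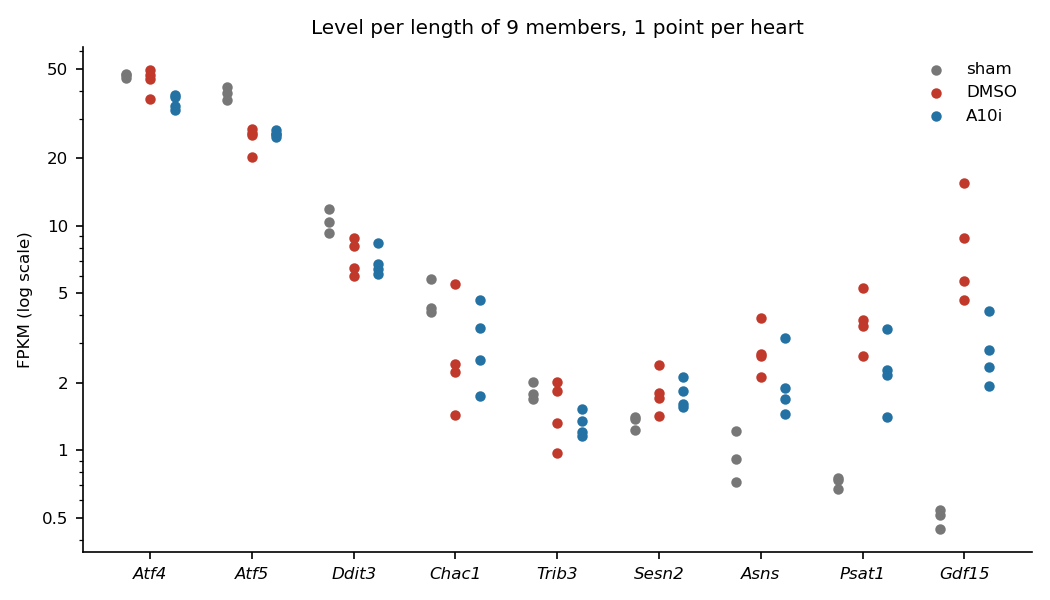
Level per length of 9 members in FPKM on a logarithmic axis, with 1 point per heart, ordered by the mean of the sham hearts (grey). Gdf15 is the lowest of the 9 in sham hearts, at 0.501 FPKM on average, and is on average among the highest 3 in the DMSO hearts (red).

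The comparison of DMSO with sham hearts asked how the stress response stood 3 days after MI. Gdf15, Psat1 and Asns rose and Atf5 fell, whereas the other 5 members that could be tested did not pass an adjusted p of 0.01 in edgeR's quasi-likelihood test. Higher calls thus numbered 3 of 9 tested members, against 12.9% of the 17117 genes tested, and lower calls 1 of 9, against 9.6%. The median log2 fold change of the 9 members was -0.08, beside 0.00211 over all genes tested. The members did not move in a common direction. In normalized counts, every DMSO heart lay above every sham heart in 4 members, beside 4293 of the 17117 genes tested. Every DMSO heart lay below every sham heart in 2 members, beside 4044 genes. Such a lack of overlap was thus common over all genes. Over all genes 2215 rose and 1643 fell, and with scaling by library totals alone, which moved the median of all genes to 0.208, 3330 rose and 708 fell.

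Gdf15 (ENSMUSG00000038508, chr8:70629393-70632456, minus strand), the secreted cytokine, gave 24.4, 21.0 and 25.8 normalized counts in the sham hearts S1, S2 and S3, and 735, 222, 268 and 419 in the DMSO hearts A105, A127, A128 and A129. The A10i hearts A116, A117, A119 and A120 gave 199, 112, 133 and 92.0. Every infarcted heart lay above every sham heart, the 3 groups did not overlap, and the DMSO hearts were widely spread, with A105 highest. Gdf15 rose 17.2-fold from sham to DMSO (log2 fold change 4.10 ± 0.485, SE, edgeR adjusted p = 0.00048). The 95% interval of this log2 fold change ran from 3.00 to 5.20, and without A105 its value was 3.65.

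Psat1 (chr19:15904678-15947337, minus strand) and Asns (chr6:7675169-7693254, minus strand) make amino acids: Psat1 encodes the aminotransferase of serine synthesis, and Asns the synthetase of asparagine. Psat1 gave 73.1, 82.2 and 80.4 normalized counts in the sham hearts, 416, 285, 391 and 578 in the DMSO hearts, and 378, 248, 153 and 237 in the A10i hearts. The infarcted hearts lay above the sham hearts throughout, and Psat1 rose 5.29-fold from sham to DMSO (log2 fold change 2.40 ± 0.234, edgeR adjusted p = 0.000177). Asns gave 64.2, 85.1 and 50.5 normalized counts in the sham hearts, 189, 149, 184 and 273 in the DMSO hearts, and 222, 102, 133 and 118 in the A10i hearts. No DMSO heart overlapped the sham hearts in Asns, which rose 2.96-fold (log2 fold change 1.57 ± 0.249, edgeR adjusted p = 0.00131). Both genes had their highest DMSO value in A129 and their highest A10i value in A116.

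The transcription factors did not follow these genes upwards. Atf4 (chr15:80255184-80257541, plus strand), the central factor of the response, gave 2881, 2760.4 and 2849.8 normalized counts in the sham hearts, 2830.3, 2725, 2213 and 2988 in the DMSO hearts, and 2319.5, 1989, 2255 and 2056 in the A10i hearts. Sham and DMSO hearts overlapped, with A128 apart below the others. The log2 fold change of Atf4 between DMSO and sham was -0.08 ± 0.104 (edgeR adjusted p = 0.581, 95% interval -0.31 to 0.16), and its sign turned to 0.13 when libraries were scaled by their totals alone and to 0.00805 without A128. Atf5 (chr7:44812256-44816658, minus strand), a related factor that is also controlled by translation, gave 2115, 1864 and 2001 normalized counts in the sham hearts, 1322, 1297, 1038 and 1372 in the DMSO hearts, and 1305, 1370.0, 1266 and 1315 in the A10i hearts. Every infarcted heart lay below every sham heart in Atf5, which fell by 0.67 ± 0.102 on the log2 scale (1.59-fold lower, edgeR adjusted p = 0.00109). With scaling by library totals alone this value was -0.46 and its adjusted p 0.0112, the highest over the alternatives, where the lowest was 6.938e-07.

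Ddit3 (chr10:127290774-127296288, plus strand), which encodes the factor CHOP of lasting stress, gave 456, 409 and 519.7 normalized counts in the sham hearts, 388, 358, 286 and 261 in the DMSO hearts, and 267, 283, 368 and 297 in the A10i hearts. The infarcted hearts lay below the sham hearts without overlap, yet the log2 fold change between DMSO and sham, -0.52 ± 0.148, missed the threshold (edgeR adjusted p = 0.02). It passed in DESeq2 (adjusted p = 0.00858), without a filter on low counts and without A105, and over all alternatives its adjusted p ran from 0.00477 to 0.0937. The other entry of the symbol Ddit3 (chr10:127290829-127293753, a short transcript whose exons all lie inside those of the longer one) had 0 counts in 11 of 11 hearts. Since its exons are shared with the longer entry on the same strand, the 0 sets no limit on its expression. On the opposite strand 68 exonic bases of Ddit3 are shared with Mars and 13 with Gm4189, and 82 of Atf5 with Il4i1 and with Nup62.

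**Figure D2:**
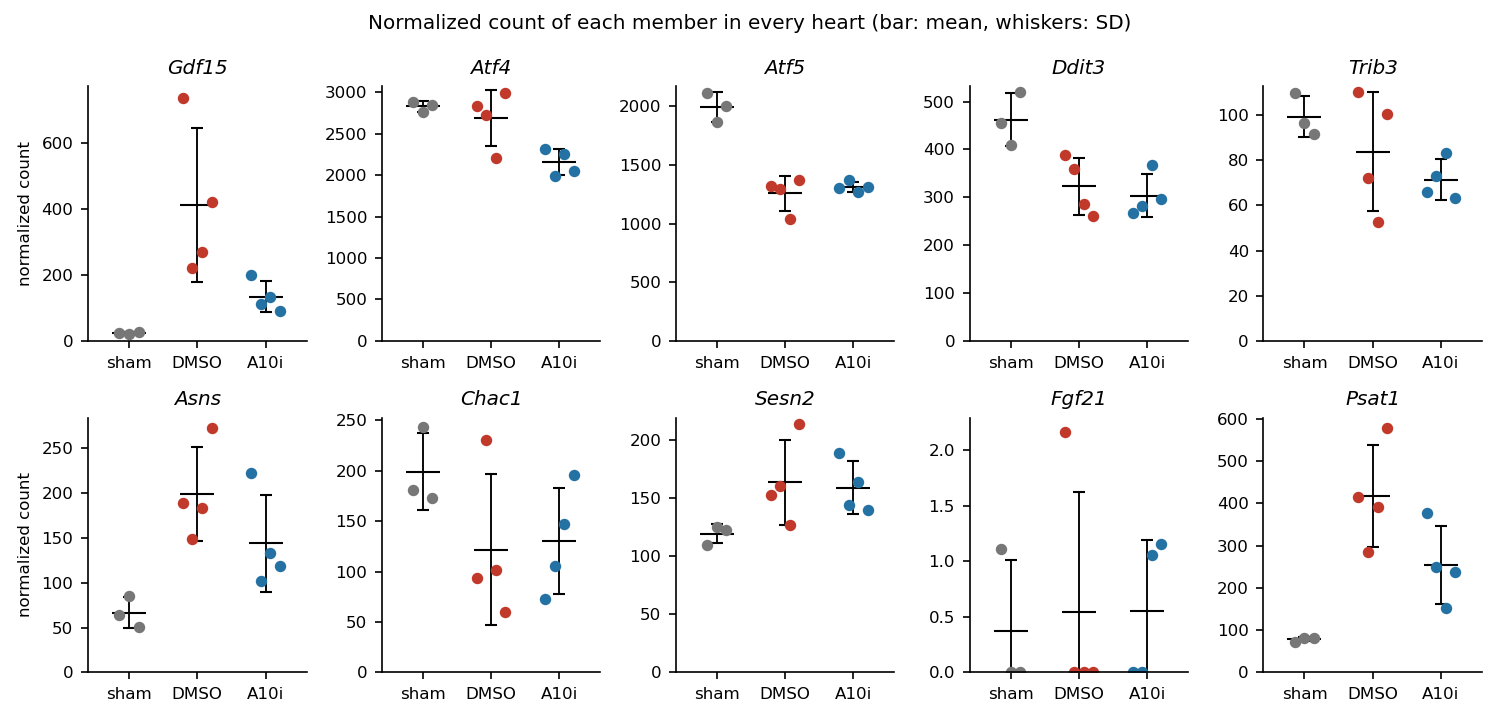
Normalized count of the 10 members in every heart, on linear axes from 0, with the group mean (bar) and SD (whiskers) for 3 sham, 4 DMSO and 4 A10i hearts. Gdf15, Psat1 and Asns stand higher in the infarcted hearts, Atf5 and Ddit3 lower, and Gdf15 is lower in the A10i than in the DMSO hearts without overlap.

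The remaining 4 members were not called between DMSO and sham. Trib3 (chr2:152337422-152344032, minus strand), a pseudokinase that is induced by ATF4 and CHOP and restrains ATF4, gave 109.6, 96.6 and 91.8 normalized counts in the sham hearts, 110.0, 72.0, 52.7 and 100.3 in the DMSO hearts, and 65.9, 73.2, 83.4 and 63.2 in the A10i hearts. Its log2 fold change between DMSO and sham was -0.26 ± 0.248, and the DMSO hearts enclosed the sham hearts. Chac1 (chr2:119351229-119354381, plus strand), which breaks down glutathione, gave 181, 243 and 173 normalized counts in the sham hearts, 93.8, 231, 101 and 60.2 in the DMSO hearts, and 73.0, 106, 147 and 195 in the A10i hearts. A127 alone of the DMSO hearts lay within the sham range of Chac1, whose log2 fold change was -0.71 ± 0.387 (edgeR adjusted p = 0.174) with A127 and -1.22 (adjusted p = 0.00504) without it. Over the alternatives its adjusted p ran from that value to 0.423.

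Sesn2 (chr4:132492032-132510501, minus strand), a stress-inducible inhibitor of the growth regulator mTORC1, gave 109.6, 125 and 123 normalized counts in the sham hearts, 152, 160.3, 126.7 and 214 in the DMSO hearts, and 189, 143, 164 and 139 in the A10i hearts. The lowest DMSO heart, A128, was barely above the highest sham heart, and the log2 fold change of 0.45 ± 0.186 missed the threshold (edgeR adjusted p = 0.0816). Fgf21 (chr7:45613886-45615490, minus strand), a hormone of fasting and mitochondrial stress, had 1, 0 and 0 counts in the sham hearts, 2, 0, 0 and 0 in the DMSO hearts and 0, 0, 1 and 1 in the A10i hearts. It did not pass the filter on low counts and was not tested in any comparison; a count of 0 allows up to 3 counts in a heart. Its level was therefore not distinguishable between the groups at this depth.

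The comparison of A10i with sham hearts asked the same under ADAM10 inhibition, against the same 3 sham hearts. Gdf15 and Psat1 rose, and Atf4, Atf5 and Ddit3 fell, so that higher calls numbered 2 of 9 members (13.7% of the 16971 genes tested) and lower calls 3 of 9 (9.11%). Gdf15 rose 5.65-fold (log2 fold change 2.50 ± 0.291, edgeR adjusted p = 0.000319) and Psat1 3.24-fold (1.69 ± 0.280, adjusted p = 0.00196). Atf5 fell by 0.60 ± 0.0641 on the log2 scale (edgeR adjusted p = 0.000239) and Ddit3 by 0.60 ± 0.125 (adjusted p = 0.00417). Every A10i heart lay below every sham heart in Atf4, which fell by 0.39 ± 0.0704 (1.31-fold lower, edgeR adjusted p = 0.00211). In 4 members every A10i heart lay below every sham heart, beside 3989 of the 16971 genes tested. In 4 members every A10i heart lay above, beside 4206 genes.

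The calls of Atf4 and Ddit3 rested on more than 1 choice. With scaling by library totals alone the log2 fold changes were -0.20 (adjusted p = 0.0833) for Atf4 and -0.42 (adjusted p = 0.0199) for Ddit3. Their lowest adjusted p over the alternatives was 1.035e-05 and 4.521e-05, and the highest 0.0833 and 0.0258. The call of Atf4 was lost without S1, S2 or S3, that of Ddit3 without S1, S3 or A120 and in a joint fit of all 11 hearts, and that of Psat1 without S1 or S3. The log2 fold change of Asns was 1.11 ± 0.294 (edgeR adjusted p = 0.015). It passed the threshold in DESeq2 and without A116 or A117. Trib3 (-0.47 ± 0.161, adjusted p = 0.0406), Sesn2 (0.42 ± 0.145, adjusted p = 0.0433) and Chac1 (-0.62 ± 0.292, adjusted p = 0.126) were not called in the edgeR fit.

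The comparison of A10i with DMSO hearts asked what the inhibitor changed in the infarcted heart. No member passed an adjusted p of 0.01 in edgeR, nor did any other of the 16792 genes tested (0%), and none passed in limma-voom. Gdf15 had the largest difference of the 9 members: its log2 fold change was -1.61 ± 0.385, or 3.05-fold lower with A10i, with a 95% interval from -2.47 to -0.75 (edgeR adjusted p = 0.129). Its lowest DMSO heart, A127 with 222 normalized counts, lay above its highest A10i heart, A116 with 199, so that the groups did not overlap but came close. Gdf15 was the only member without overlap in the lower direction, a pattern that 4.11% of all genes tested showed.

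DESeq2 called Gdf15 lower (log2 fold change -1.62 ± 0.366, adjusted p = 0.00165), and this was 1 of 9 members tested, against 0.756% of all genes. Over all alternatives the log2 fold change of Gdf15 lay between -1.86 without A116 and -1.17 without A105, and DESeq2 was the only setting in which it passed (adjusted p from 0.00165 to 0.341 over the alternatives). At an unadjusted p under 0.05 in edgeR, Gdf15, Psat1 and Atf4 were lower in A10i hearts, which was 3 of 9 members against 6.73% of all genes, and 0 of 9 were higher, against 7.1%. The log2 fold change was -0.71 ± 0.275 for Psat1 (edgeR adjusted p = 0.292) and -0.32 ± 0.102 for Atf4 (adjusted p = 0.219), and both genes overlapped between the groups.

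For the other 6 tested members the interval of the difference between A10i and DMSO included 0. Asns had a log2 fold change of -0.46 (95% interval -1.04 to 0.12), Trib3 of -0.22 (-0.74 to 0.30) and Ddit3 of -0.09 (-0.42 to 0.25). For Atf5 the value was 0.07 (-0.14 to 0.27), for Sesn2 -0.04 (-0.43 to 0.35) and for Chac1 0.10 (-0.84 to 1.04). The sign turned without A128 for Atf5, without A105 for Ddit3, without A117, A120 or A129 for Sesn2 and without A105, A120 or A129 for Chac1. The intervals of Atf5 and Ddit3 were narrow, whereas that of Chac1 spanned changes in either direction as large as the difference of Psat1.

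**Figure D3:**
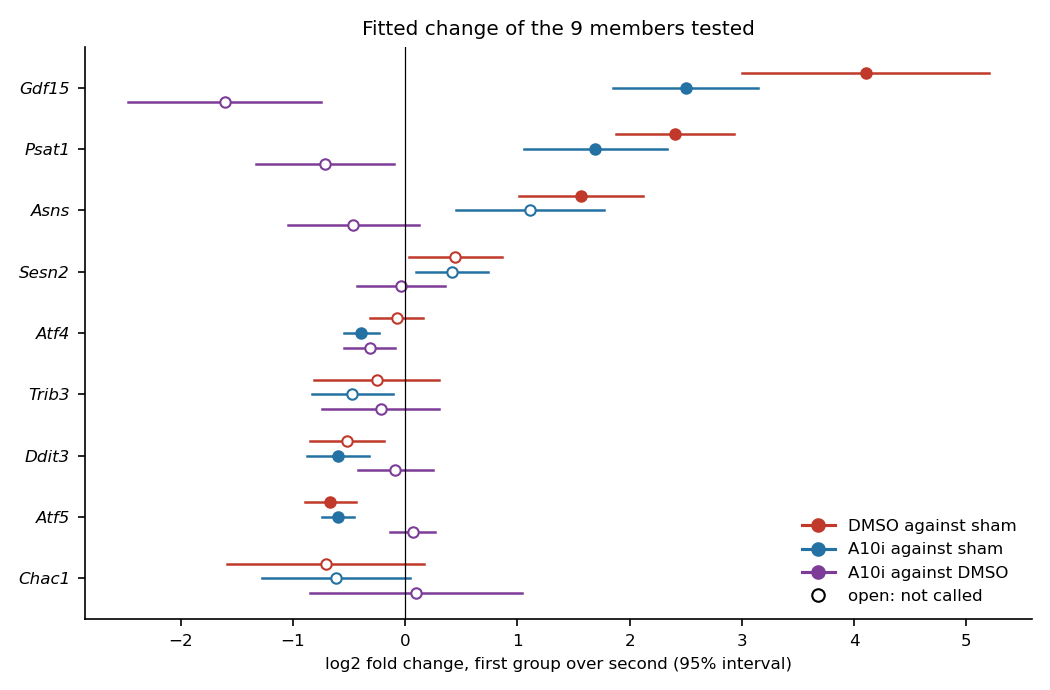
Fitted log2 fold change of the 9 members tested (points) with its 95% interval (lines) in the 3 comparisons, positive where the group named before the word against is higher; filled points passed an adjusted p of 0.01. Gdf15 stands at 4.10 for DMSO and 2.50 for A10i against sham, and at -1.61 for A10i against DMSO, where no point is filled.

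The spread among hearts of a group also differed between members. Across the 4 DMSO hearts the coefficient of variation of the normalized count was 61.7% for Chac1 and 56.4% for Gdf15, but 12.5% for Atf4 and 11.9% for Atf5. Across the 8 infarcted hearts, Pearson's r of log2 CPM (counts scaled to a fixed total, with the same scaling between hearts as the normalized counts) with Gdf15 was 0.84 for Atf4, 0.76 for Psat1, 0.74 for Asns, 0.60 for Trib3, 0.30 for Sesn2, 0.23 for Ddit3, -0.05 for Atf5 and -0.51 for Chac1. With the group means removed these became, in the same order, 0.58, 0.49, 0.60, 0.66, 0.43, 0.12, 0.33 and -0.68. Between Asns and Psat1, r was 0.83, and 0.74 with group means removed. Chac1 went against both, with r of -0.70 for Asns and for Psat1. These values describe 8 hearts that share their libraries, and they carry no test.

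Genes outside the set followed Gdf15 more closely than any member did. Of 14794 genes with at least 1 CPM on average, the 5 with the highest r over the 8 infarcted hearts were Tvp23b (0.991), Grwd1 (0.988), Cct8 (0.986), Ddx54 (0.983) and Azin1 (0.982). Grwd1 is a ribosome biogenesis factor, Cct8 a subunit of the cytosolic chaperonin, Ddx54 an RNA helicase and Azin1 the inhibitor of antizyme. With group means removed their r stayed between 0.948 and 0.989. With the group means left in, Atf4 was the closest member and ranked at 631. With group means removed, Trib3 (0.663) and Asns (0.599) were closer than Atf4 (0.584).

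The other genes of the pathway were read from a list of 63, of which 61 could be tested in each comparison. Between DMSO and sham hearts 16 rose and 5 fell in edgeR at an adjusted p of 0.01, with a median log2 fold change of 0.11, where 12.9% of all genes tested rose and 9.6% fell. Without S1 the number called was 11, and without S2 or S3 it was 10: the calls of Cebpb, Cth, Eif2s1, Eif4ebp1, Nupr1, Phgdh, Ppp1r15b, Slc7a1, Slc7a5 and Tnfrsf10b were lost without any 1 sham heart, and that of Pycr1 without S2 or S3. The calls of Phgdh and Tnfrsf10b were also lost without A127 or A129, that of Phgdh without A105, that of Tnfrsf10b without A128 and that of Pycr1 without A127. Over all genes, leaving out 1 sham heart took the calls from 2215 higher and 1643 lower to between 922 and 977 higher and between 565 and 603 lower. Between A10i and sham hearts 9 rose and 8 fell, with a median of 0.02, where 13.7% of all genes tested rose and 9.11% fell. The number called was 9 without S1 or A120 and 7 without S2 or S3, while over all genes 2333 higher and 1546 lower calls became 1062 to 1117 higher and 543 to 602 lower without 1 sham heart and 1756 higher and 1032 lower without A120. Slc7a11, among the 16 that rose in DMSO hearts, and Cbs, among the 9 that rose in A10i hearts, passed the filter on low counts only through the infarcted hearts. The calls of Hspd1, Iars, Lars, Mars, Mthfd2, Ppp1r15b, Slc1a4 and Tnfrsf10b were lost without any 1 sham heart, and those of Cbs and Vldlr without S2 or S3. Those of Hspd1, Iars, Lars, Mars, Mthfd2, Ppp1r15b, Slc1a4 and Tnfrsf10b were also lost without A120, those of Iars, Lars, Ppp1r15b and Tnfrsf10b without A119, and those of Cbs, Hspd1 and Iars without A117. In limma-voom the calls of Iars, Ppp1r15b and Tnfrsf10b were lost, and in the joint fit those of Hspd1, Iars, Lars, Mars, Ppp1r15b and Slc1a4. Between A10i and DMSO hearts 0 were called by edgeR and 0 by limma-voom, with a median of -0.11. At an unadjusted p under 0.05 in edgeR 11 were lower, Slc7a11 among them, and 3 higher, beside 6.73% and 7.1% of all genes tested. DESeq2 called 6 of the listed genes lower with A10i, namely Atf3, Cebpb, Eif4ebp1, Ppp1r15a, Slc38a2 and Slc7a11, beside 0.756% of all genes tested. In this comparison Slc7a11 passed the filter on low counts only through the DMSO hearts, where it was high. Its place in both counts therefore carries no weight.

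Upstream of Atf4, the 4 eIF2alpha kinases did not pass the threshold in any comparison. The log2 fold changes between DMSO and sham were -0.03 for Eif2ak1, which senses haem (0.18 with scaling by library totals alone), 0.01 for Eif2ak2, which senses double-stranded RNA, 0.14 for Eif2ak3, the sensor of the endoplasmic reticulum (ER), and 0.24 for Eif2ak4, which senses uncharged tRNA. Transcript levels of kinases say nothing of their activity. The phosphatase subunits that undo the phosphorylation were higher: Ppp1r15a, the inducible phosphatase subunit GADD34, rose from 656 ± 79.7 normalized counts in sham to 1300.4 ± 212 in DMSO hearts (log2 fold change 0.98 ± 0.136, edgeR adjusted p = 0.000683), and its constitutive relative Ppp1r15b rose by 0.50 (adjusted p = 0.0028). In A10i hearts Ppp1r15a was at 769 ± 112, a log2 fold change of -0.75 ± 0.136 against DMSO without overlap of the groups (edgeR adjusted p = 0.0731). Eif2s1, which encodes eIF2alpha itself, rose by 0.31 between DMSO and sham (edgeR adjusted p = 0.00978), a call also lost in limma-voom, without a filter on low counts, in the joint fit of all 11 hearts and without A105, A127 or A129.

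Among the partners of ATF4, Atf3 moved most. This immediate early factor, itself a target of ATF4, gave 78.4 to 111 normalized counts in the sham hearts, 952 to 2092 in the DMSO hearts and 253 to 354 in the A10i hearts, and no group overlapped another. The log2 fold change of Atf3 was 3.82 ± 0.323 for DMSO and 1.74 ± 0.167 for A10i against sham (edgeR adjusted p = 0.000132 and 0.000149). Between A10i and DMSO it was -2.09 ± 0.253 (edgeR adjusted p = 0.048). Cebpb, the C/EBP partner of ATF4, rose by 0.50 between DMSO and sham (adjusted p = 0.00316) and had a log2 fold change of 0.00205 between A10i and sham. Nupr1 and Tnfrsf10b rose in both comparisons with sham (Nupr1 by 0.90 and 1.09, Tnfrsf10b by 0.85 and 0.90). Stc2 and Vldlr, although known ATF4 targets, fell in both (Stc2 by 1.93 and 1.29, Vldlr by 0.93 and 0.71).

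Genes of amino acid supply moved in both directions. For uptake, 5 of 8 transporters tested rose between DMSO and sham, or 4 of 7 without Slc7a11, beside 12.9% of all genes: Slc38a2, a carrier of neutral amino acids, rose by 1.54 on the log2 scale, Slc7a5 by 1.17, Slc3a2 by 1.15 and Slc7a1 by 0.32. The calls of Slc7a5 (edgeR adjusted p = 0.00665) and Slc7a1 (edgeR adjusted p = 0.00531) were also lost without a filter on low counts and without A105, that of Slc7a5 in limma-voom and without A129, and that of Slc7a1 in the joint fit and without A127. The cystine carrier Slc7a11 had 0 to 3 counts in the sham hearts, 84 to 141 in the DMSO hearts and 8 to 60 in the A10i hearts. It passed the filter on low counts only through the DMSO hearts, both against sham and against A10i. It was not tested between A10i and sham, and its fitted fold change against a group so near 0 is not given as a size. For synthesis, Pycr1 of the proline pathway rose by 1.84, Mthfd2 of mitochondrial one-carbon metabolism by 1.61 and Phgdh, which opens the serine pathway that Psat1 continues, by 1.37. Phgdh was measured on 10 to 19 counts in the sham hearts. In contrast, Cth, which makes cysteine, fell by 1.81 and Gpt2, the mitochondrial alanine aminotransferase, by 1.48. Cth was measured on 5 to 25 counts in the DMSO hearts.

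Between A10i and sham, Slc1a4 (0.90), Slc3a2 (0.89), Slc38a2 (0.75), and Mthfd2 (1.16) rose, and Gpt2 fell by 1.10. Cbs, at 1 to 4 counts in the sham hearts and 9 to 20 in the A10i hearts, was called higher (2.93), but it passed the filter on low counts only through the A10i hearts and was not tested in the other comparisons, where the DMSO hearts had 6 to 11 counts. Of the 12 aminoacyl-tRNA synthetases, which load amino acids onto tRNA, 0 rose in either comparison with sham, beside 12.9% (DMSO) and 13.7% (A10i) of all genes. Iars, Lars and Mars fell by 0.29, 0.26 and 0.25 between A10i and sham, where 9.11% of all genes fell. With scaling by library totals alone these 3 falls were lost, and Gars, Sars and Tars rose between DMSO and sham, as did 3330 of the 17117 genes tested. Of 7 genes of mitochondrial stress, Oma1 and Dele1 form a relay that passes it to eIF2alpha, and Lonp1, Hspd1, Hspe1, Hspa9 and Clpp encode mitochondrial chaperones and proteases. All 7 had negative log2 fold changes between DMSO and sham and between A10i and sham with scaling by TMM, the trimmed mean of log ratios, but 4 and 6 of the 7 with library totals alone. Dele1, the messenger of the relay, fell by 0.78 and 0.63 (edgeR adjusted p = 0.000598 and 0.000836), and Hspd1 by 0.31 between A10i and sham, a call lost with library totals alone. By contrast, 10 of 21 ER chaperones and sensors, listed for comparison, rose after MI in each treatment group, beside 12.9% (DMSO) and 13.7% (A10i) of all genes tested, with Sdf2l1 highest (1.41 and 1.35). Herpud1, of the same list, fell by 0.70 between DMSO and sham (edgeR adjusted p = 0.00323), a call lost with library totals alone (-0.49, edgeR adjusted p = 0.0172). With that scaling 13 of the 21 rose, beside 3330 of the 17117 genes tested.

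**Figure D4:**
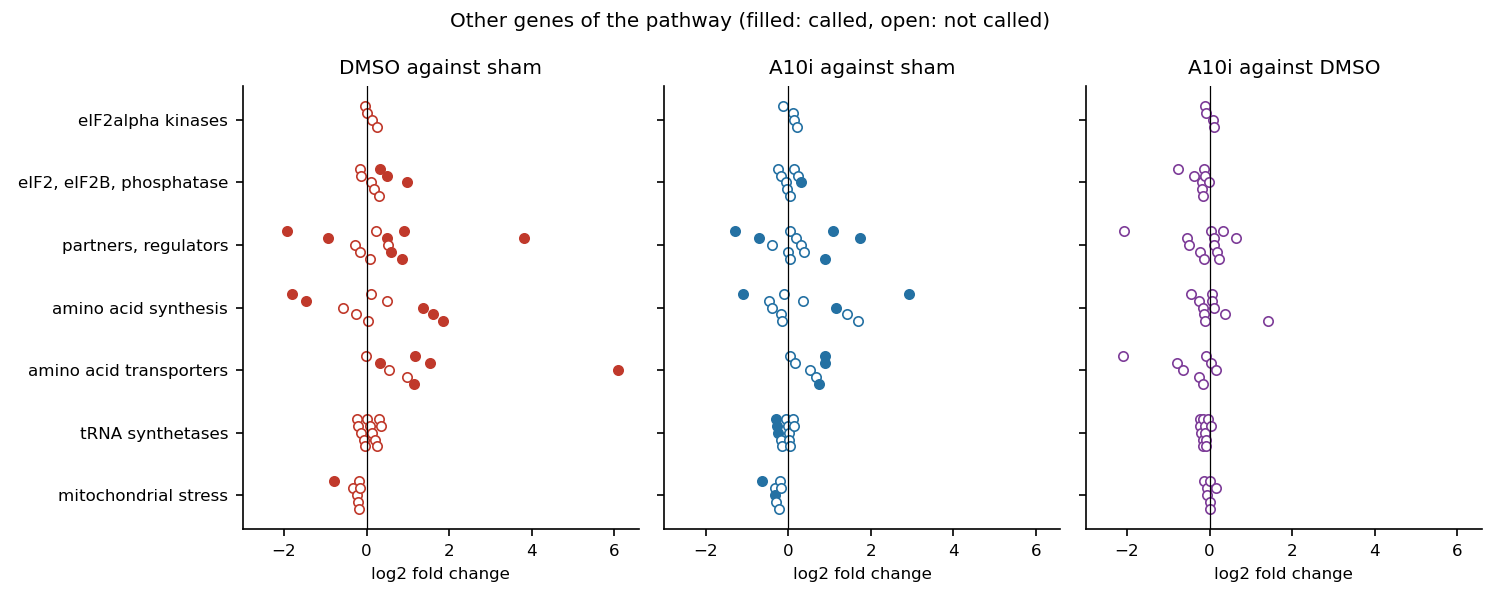
Log2 fold change of each tested gene of 7 groups of the pathway in the 3 comparisons, 1 point per gene; filled points passed an adjusted p of 0.01 in edgeR. For DMSO against sham Atf3 reaches 3.82, and the point farthest to the right is Slc7a11, whose fitted value is no measure of size because the sham hearts had 0 to 3 counts. The 12 tRNA synthetases stay near 0, and no point is filled for A10i against DMSO.

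The receptors of the secreted members stood at very different levels. Gfral, the receptor of GDF15, had 0 counts in 11 of 11 hearts, which allows up to 3 counts per heart. Its co-receptor Ret was present at 1.13 FPKM in sham hearts and was not called in any comparison. Klb, the co-receptor of FGF21, had at most 2 counts in a heart. Fgfr1, the receptor to which KLB binds, rose by 0.57 in DMSO and by 0.64 in A10i hearts against sham (edgeR adjusted p = 0.00344 and 0.000617).

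The neutrophil markers followed the group order of Gdf15, lowest in sham and highest in DMSO hearts, whereas the sums of the macrophage and monocyte markers and of the fibroblast markers were on average highest in A10i hearts. The summed CPM of 8 neutrophil markers lay between 1.12 and 2.12 in sham, between 73.0 and 146 in DMSO and between 14.1 and 50.5 in A10i hearts, and 7 of 7 tested markers had a negative log2 fold change between A10i and DMSO. Ly6g, a defining neutrophil marker, had 0 counts in the sham hearts, 1 to 8 in the DMSO hearts and 1 to 4 in the A10i hearts, and was not tested in any comparison. The hearts A105, with the highest Gdf15, and A129, with the highest neutrophil sum, were not the same, and within the A10i group A116 was highest in both. The 8 cardiomyocyte markers, detected in every group, summed to 80523 to 81859 CPM in sham, 37973 to 56136 in DMSO and 45942 to 62627 in A10i hearts. Myh6 had the most counts of the 8 and fell by 1.19 on the log2 scale between DMSO and sham. Of the 8, 7 had a negative log2 fold change there, 4 of them called, and Tnnt2 had a positive one (0.10). The 8 macrophage and monocyte markers summed to 310.5 CPM on average in sham, 617 in DMSO and 793 in A10i hearts. In the same order the 8 fibroblast markers averaged 1186, 4005 and 6233 CPM, the 8 endothelial markers 1055, 943 and 1056, the 5 T and NK cell markers 1.64, 1.11 and 1.55, and the 4 B cell markers 1.24, 1.25 and 1.62. Between DMSO and sham 4 of the 8 fibroblast markers were called higher, but Pdgfra, Dcn (0.22), Lum (0.28) and Tcf21 (0.10) were not. Of the 8 macrophage and monocyte markers, 7 had positive log2 fold changes there and Cd163 a negative one (-0.62). Between A10i and DMSO 7 were positive and 0 called, and Cd14 averaged 641 normalized counts in DMSO and 378 in A10i hearts. The heart A105, with the highest Gdf15, had the lowest macrophage and monocyte sum (481 CPM) and the lowest fibroblast sum (1908 CPM) of the DMSO hearts and their highest cardiomyocyte sum (56136 CPM). The reverse held in the A10i group, where A116, with the highest Gdf15, had the highest macrophage and monocyte sum (1149 CPM), the highest fibroblast sum (8917 CPM) and the lowest cardiomyocyte sum (45942 CPM). The part of these cell types in the values of Gdf15, Psat1, Asns and the other members was not tested.

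**Figure D5:**
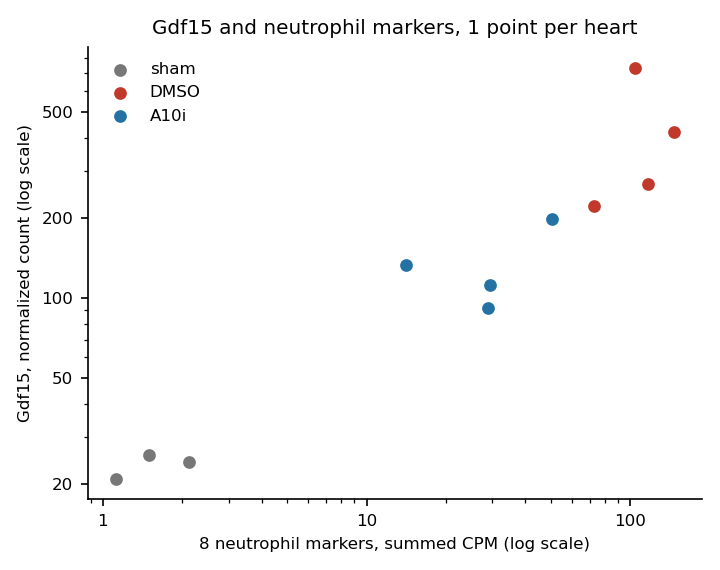
Normalized count of Gdf15 against the summed CPM of 8 neutrophil markers, both on logarithmic axes, with 1 point per heart. The 3 groups are separate on either axis, from 1.12 to 2.12 CPM in sham to 73.0 to 146 CPM in DMSO hearts, and the DMSO heart with the highest Gdf15 does not have the highest neutrophil sum.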

How the data were processed

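Counts of 11 heart libraries were analysed (4 A10i, 4 DMSO, 3 sham, 1 mouse each). The authors aligned strand-specific 100-base read pairs to mm10 (GRCm38) with GSNAP and counted them per Ensembl 98 gene with featureCounts 2.0.1; the deposited values are raw counts without normalization, and the strand setting is not given in the sources used here. The 92 spike-in entries (at most 0.000194% of a library's fragments) were left out, and 0 count columns were unused. Symbols came from GENCODE M21, and sequences from RefSeq.

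Genes were compared between the hearts of the groups named, with edgeR 4.0.16 in R 4.3.3: filterByExpr removed low counts, TMM set the scale, the quasi-likelihood test was robust and two-sided, and p-values were adjusted over all genes tested (Benjamini-Hochberg) and called under 0.01. Normalized counts are counts scaled by TMM to the mean library, FPKM divide by exonic length, and log2 CPM used a prior count of 2. FPKM and CPM used the same TMM-scaled library totals. SE and 95% intervals were derived from the F statistic. The script was tested on simulated data. Alternatives were DESeq2 1.42.0 (without independent hypothesis weighting, which the authors used), limma-voom 3.58.1, RLE or no scaling factors, other filters, a joint fit, a threshold of 0.05 and leaving out each library.

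The named genes include all members, up to 3 of the highest and 3 of the lowest called genes of each list, the kinases, phosphatase subunits, Atf3, Cebpb, the receptors, and the 5 genes most like Gdf15. Further genes, such as the mitochondrial stress genes, Eif2s1 and Ly6g, are named where a list or a change of calls is described. Members, lists and tests were chosen with earlier results of these data known. Replicates of a group differed beyond sampling noise (chi-square per degree of freedom 4.04 to 60.9 over 15 pairs).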

Additional observations from a re-analysis of the deposited data

Results flagged for a closer look

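Fgf21 stood out in 1 DMSO heart: A105 had 2 counts (2.16 normalized counts) and the other 3 hearts had 0, so the gap to the nearest heart was the whole range of the group (ratio 1, above the 95% critical value of Dixon's test). For continuous values about 1 in 20 groups shows such a gap by chance, and 20 combinations of member and infarcted group were examined. With 3 hearts tied at 0, any count in the remaining heart gives a ratio of 1, so this rate does not apply to Fgf21. The count of A105 lies under the 3 counts that a value of 0 allows.

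Fragments were also counted on the 92 entries of spike-in sequences, which no comparison used, with up to 55 fragments in a library (A127).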

How the results depend on the processing

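Of 387 recalculated values for the 27 log2 fold changes of single members, 357 kept their sign and their side of the threshold, 12 lost a call, 8 gained one and 10 changed sign. The changed signs were all of uncalled values: Atf4, DMSO against sham, 0.13 with library totals alone (a scaling that moved the median of all genes to 0.208, and to 0.181 for A10i against sham, where 3436 genes then rose and 577 fell in place of 2333 and 1546) and -0.13 to 0.00805 without single libraries, the last without A128. For A10i against DMSO, the ranges without single libraries were -0.0118 to 0.11 for Atf5 (negative without A128), -0.19 to 0.00993 for Ddit3 (positive without A105), -0.16 to 0.61 for Chac1 (negative without A105, A120 or A129) and -0.14 to 0.12 for Sesn2 (positive without A117, A120 or A129).

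Members called for A10i against sham numbered 3 with library totals alone, where 3436 of the 16971 genes tested rose and 577 fell. They numbered 8 at a threshold of 0.05 and 2 to 6 without single libraries, 2 without S1 or S3. For A10i against DMSO they numbered 1 in DESeq2. Other pathway genes called numbered 10 to 21 without single libraries for DMSO against sham, 11 without S1 and 10 without S2 or S3. For A10i against sham they numbered 11 in the joint fit of 11 libraries, 26 at a threshold of 0.05 and 7 to 21 without single libraries, 9 without S1 or A120 and 7 without S2 or S3. For A10i against DMSO they numbered 6 in DESeq2, 1 without a filter (Ppp1r15a), and 1, each time Atf3, in the joint fit, at a threshold of 0.05 and without A105, with a range of 0 to 1 without single libraries. The cause of these shifts was not tested. The share of all genes called at a threshold of 0.05 was not computed, so the counts at that threshold are not results about these genes.

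No paired analysis was possible because the mice of different groups share no number or label. The depth limits Fgf21, Gfral and Klb, which were at or under the counts that a value of 0 allows.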
